A study of Mus musculus with 30 samples.

Results

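The restored bins were 1179 stretches of 100 nt at which N6-methyladenosine (m6A) was called in every list of 4 mouse embryonic stem cell lines and in no list of a Mettl14 knockout. They made up 1.9% of the 62091 distinct bins called in any of 15 peak lists, and the authors assigned them to 831 of 13759 genes with a called bin (6.04%). A bin was a member when the same chromosome, start, end and strand stood in all 12 lists from wild-type cells (WT) and from the knockout given back METTL14, either wild type (KO+WT) or in 1 of 2 forms labelled deficient in arginine methylation (KO+5RK and KO+13RK), and in none of the 3 lists from the knockout (KO). The members were thus chosen by the calls themselves, and the loss in KO and the return in the rescues are the rule and not a result.

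All 5 lines were C57BL/6 embryonic stem cells grown with leukemia inhibitory factor on gelatin, and KO+WT, KO+5RK and KO+13RK share the Mettl14 deletion of KO. Each line had 3 libraries precipitated with an m6A antibody and 3 input libraries, and the lists come from the precipitated ones. The labels give neither the vector nor the level of the added METTL14, nor whether a line is a clone, nor whether replicates came from separate cultures, so a p-value here measures only the spread between these libraries. Lists differed in length, from 6323 to 8585 bins in KO, 9581 to 10964 in KO+13RK, 11165 to 13001 in KO+5RK, 14172 to 17162 in KO+WT and 22202 to 23143 in WT. Mettl14 itself had a bin in 2 KO+5RK lists only, and a bin does not report expression, so the deletion could not be checked here. Bins were called in at least 1 list for all 10 embryonic stem cell marker genes examined and for 6 of 8 fibroblast markers, the exceptions being Col1a2 and Col3a1. Thy1, Col1a1, Fbn1, Pdgfrb and Vim had bins in 2 to 6 lists each. Fn1 had 30, 23 and 23 bins in the WT lists and 0 to 3 in each of the other 12, and it holds no restored bin.

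m6A is added to nascent messenger RNA by a complex in which METTL3 is the catalytic subunit and METTL14 helps to hold the RNA. The complex prefers an adenosine inside short motifs such as GGACT, and the mark is best known around stop codons, in 3′ untranslated regions and in long internal exons. Reader proteins that bind the mark change the stability and translation of the transcript, and in embryonic stem cells the turnover of marked pluripotency transcripts is a textbook example. The C-terminus of METTL14 is disordered and rich in arginine and glycine, and the title of the series names methylation of its arginines.

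Sequence could be read only where a bin reached a promoter window of the RefSeq table for GRCm38.p6, which was the case on the same strand for 2 genes, Fancl and Hnrnpdl. Fancl encodes the ubiquitin ligase of the Fanconi anaemia pathway of crosslink repair, and Hnrnpdl encodes an RNA-binding protein. The 4 stretches of 25 nt are shown because each centres on the preferred GGACT motif inside a restored bin, with the motif in capitals and the RNA strand given 5′ to 3′ as DNA.
Fancl, chr11:26387029-26387053, plus strand: tcaggcctgtGGACTtgtgagtgat
Hnrnpdl, chr5:100039312-100039336, minus strand: ctgcactaggGGACTgagggcgcag
Hnrnpdl, chr5:100039293-100039317, minus strand: gcgcagcaagGGACTgagccgaact
Hnrnpdl, chr5:100039244-100039268, minus strand: aaggcaagagGGACTgtggccctgc
The Fancl bin spans chr11:26387036-26387135 across the RefSeq gene start at 26387084, so its motif (offset -45 from that start) lies outside the annotated gene. The Hnrnpdl motifs (offsets -104, -85 and -36) lie upstream of the start in the promoter table but inside the longer RefSeq gene span. The Hnrnpdl bins span chr5:100039278-100039377 and chr5:100039178-100039277. The search covered GGAC followed by any base, and AGAC, AAAC or GAAC followed by A or T, on the strand of the bin alone. The first Hnrnpdl bin also held 1 GGACG and 1 GAACT, which overlaps no GGACT. At the same distance from the start of all 32851 promoters of the table, GGACT was present in 10.1% for the Fancl window and in 9.05% and 10.0% for the Hnrnpdl windows, so a match is a description of these letters and not a mapped site.

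Of the 9081 bins called throughout WT and never in KO, 3712 (40.9%) were in all 3 KO+WT lists, 2401 (26.4%) in all 3 KO+5RK lists and 1704 (18.8%) in all 3 KO+13RK lists. The 1179 restored bins are 13.0% of them, while 950 (10.5%) came back in no rescue list. Just outside the rule lay 797 bins in 11 of the 12 lists and no KO list, 814 in 10 of the 12, and 90, 103 and 495 bins in all 12 lists that also stood in 1, 2 or 3 KO lists. With calls counted only at a deposited q of 0.005 or less, 504 bins met the rule. Of the members, 123 (10.4%) overlapped or touched a KO bin on the same strand and 23 of these overlapped or touched a bin called in all 3 KO lists. The median distance to the nearest KO bin was 4300 nt and 373 members (31.6%) lay within 1000 nt of one. In the 802 genes that hold the members by position, 214 (26.7%) had no bin in any KO list and 249 had one in all 3. A gene with a restored bin thus often had another call in KO. The matching shares over all genes and over the 9081 bins were not computed, so these KO counts and distances do not set the members apart.

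Restored bins lay nearer the ends of genes than all bins did. The RefSeq span of a gene on the same strand contained 1084 of the 1179, of which 97.1% were in protein-coding genes and 30 bins in long noncoding RNAs. Among those 1084, 443 (40.9%, 95% Wilson interval 38.0% to 43.8%, counting error only) lay within 2000 nt of the gene end, against 30.7% of all placed bins and 21.4% of bins called in all 15 lists. The median distance to the end was 2601 nt, against 4603 nt and 7110 nt. Gene starts were nearly bare, with 3 restored bins (0.277%) within 500 nt of a start, against 7.46% of all bins and 15.8% of bins in all 15 lists. The share was also low, 1.02%, among placed bins called throughout WT and never in KO, and 1.12% among those that no rescue list held. Of the placed bins called throughout WT and never in KO 39.9% lay near the end, and of those that also came back in no rescue list 47.1% (interval 43.9% to 50.4%). With each gene counted once by the mean over its bins, the share near the end was 42.2% for restored bins and 39.7% for all bins. The difference from all bins was thus smaller across genes than across bins. Counted by gene, the share was higher, 46.7%, for bins called throughout WT and never in KO. It was 50.2% for those that no rescue list held.

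**Figure D1:**
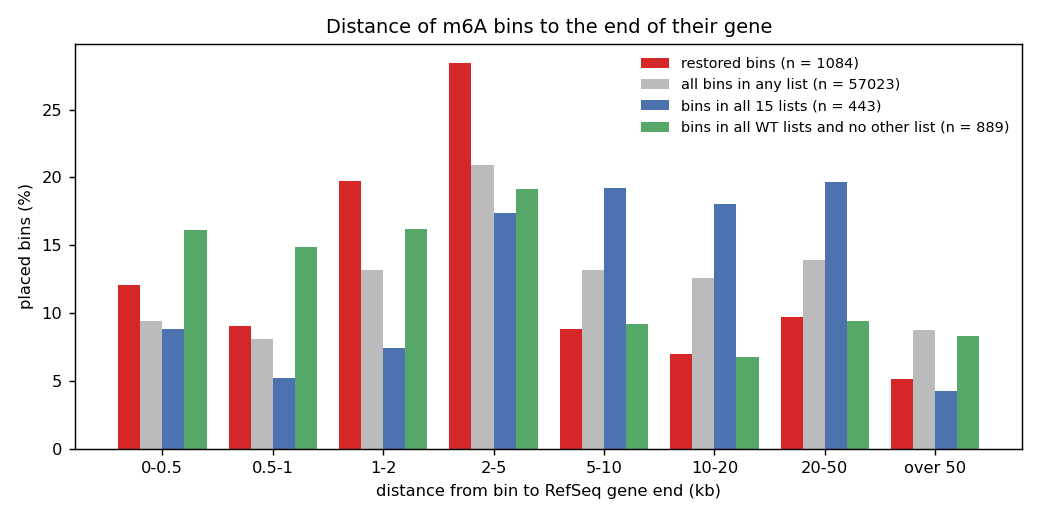
Share of placed bins (%) by distance from the bin to the end of its RefSeq gene (kb), for restored bins, all bins, bins in all 15 lists and bins in all WT lists and no other list. The classes have unequal widths, so bars are compared only within a class. Restored bins exceed all bins in each class up to 5 kb, for example with 12.1% against 9.42% within 0.5 kb and 28.4% against 20.9% at 2 to 5 kb.

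Most genes held a single restored bin. By the authors' labels 638 genes held 1, 141 held 2, 42 held 3, 5 held 4 and 5 held more. Joined end to end on a strand the bins formed 938 runs, 757 of them of 1 bin, and the longest reached 600 nt in 2 places. The run labelled Gm20388 at chr8:121882342-121882941 lies inside Slc7a5, an amino acid transporter gene, on the opposite strand. The other, at chr8:111057045-111057644, carries the label Aars but lies inside RefSeq Exosc6, which encodes a subunit of the RNA exosome, and ends 20 nt before the gene end. Exosc6 by position had 8, 8 and 7 bins in the WT lists, none in any KO list, and 6 to 8 in each of the 9 rescue lists. Fem1b, a substrate adaptor of a ubiquitin ligase, had 6 restored bins in the minus-strand stretch chr9:62796022-62797621, among 9 to 11 bins per WT list, 1 or 2 per KO list and 7 or 8 per rescue list. Herc2, a giant ubiquitin ligase that acts in the DNA damage response, had 4 adjoining bins 404 to 704 nt before its end at chr7:56230997-56231396, with 4 in every WT list, none in KO and 4 to 6 in each rescue list. Setd5, Rev1, Nup153 and Lncenc1 also held 4 bins each. Counted by position instead of by label, Urb2 held 10 restored bins, Usp10 8, and Exosc6, Fem1b, Gm39273 and Oxsr1 6 each. Some of these bins overlap under different labels.

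**Figure D2:**
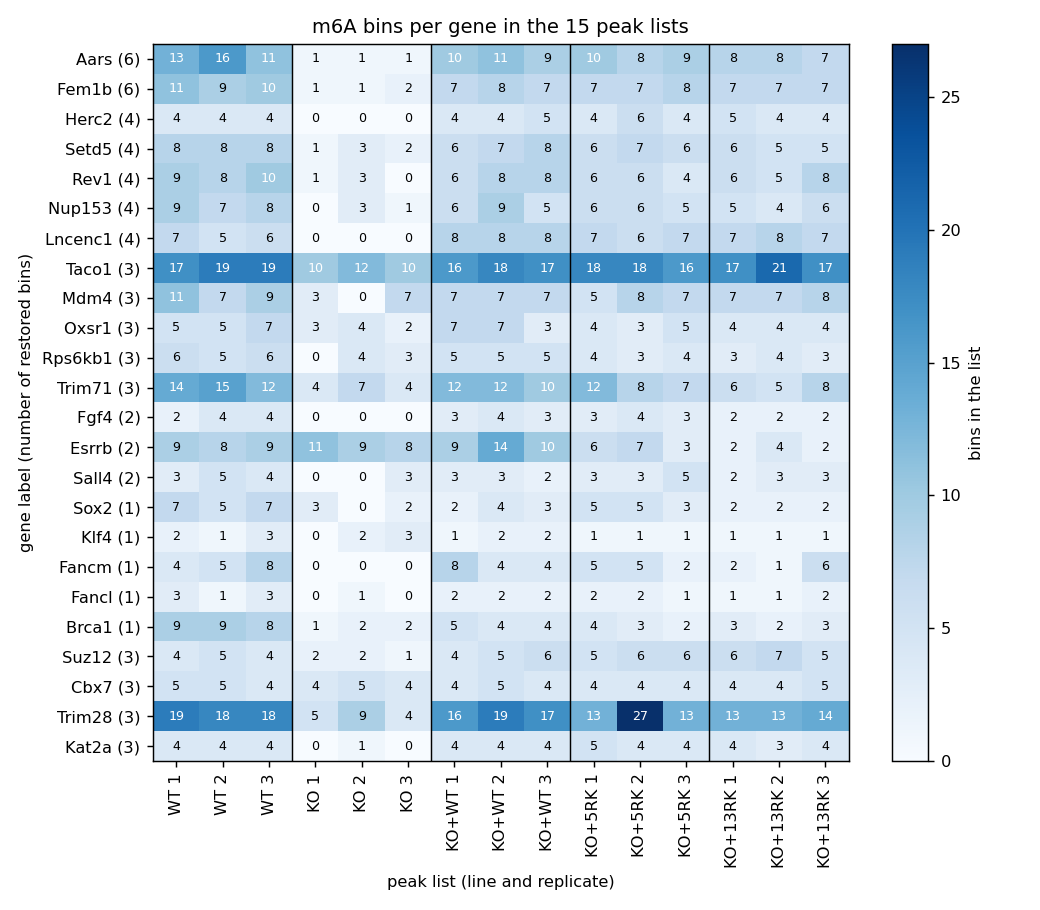
Number of bins per gene label (rows, with its restored bins in brackets) in each of the 15 peak lists (columns), colour and printed number giving the count. The labels Herc2, Lncenc1, Fgf4 and Fancm have 0 bins in all 3 KO lists, while Esrrb has 8 to 11 there; the row Aars includes the 6 bins inside Exosc6.

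Labels with more bins than these are spread over many genes. Gm20388 carries 69 restored bins on chromosome 8 between 119941342 and 124344241, of which 38 lie in the RefSeq spans of other genes such as Urb2, Usp10 and Cdt1 and 31 lie inside genes of the opposite strand, among them Taf5l, Zcchc14 and Slc7a5. The 24 bins labelled Fgfr2, a growth factor receptor gene, include none inside RefSeq Fgfr2. Of these, 7 lie in Ctbp2, Oat, 1500002F19Rik and 2310057M21Rik and 17 opposite Plekha1, Tacc2, Zranb1 and Htra1. The 11 bins labelled Gm26904 lie opposite Bicral, Rrp36 and Cnpy3. Chromosome 8 holds 135 of the 1179 restored bins and 7.79% of all bins.

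The same stretch of RNA can enter more than once. There were 47 members overlapping another on the same strand with shifted borders, and 87 overlapping a member on the opposite strand. Ignoring strand and joining touching bins left 904 separate sites. There were 14 opposite-strand pairs whose starts differed by 10 nt or less. The authors' enrichment values of both bins of such a pair differed by a median of 0.193 within a list. The medians of single pairs ran from 0 to 0.54. For 224 adjoining pairs on the same strand the median was 0.268. Adjoining bins cover different stretches, so these 2 medians are not a like comparison. The libraries were stranded, but whether strand was used in counting is not given, so reads of a gene and of its opposite partner cannot be told apart. Overlapping bins of the same strand under different labels could also differ in value. At Usp10, which encodes a deubiquitinase, the bin at chr8:119941642-119941741 under the label Gm20388 had 2.31, 2.67 and 2.44 in the WT lists, while the bin at chr8:119941661-119941760 under the label Usp10 had 1.37, 1.46 and 1.38.

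**Figure D3:**
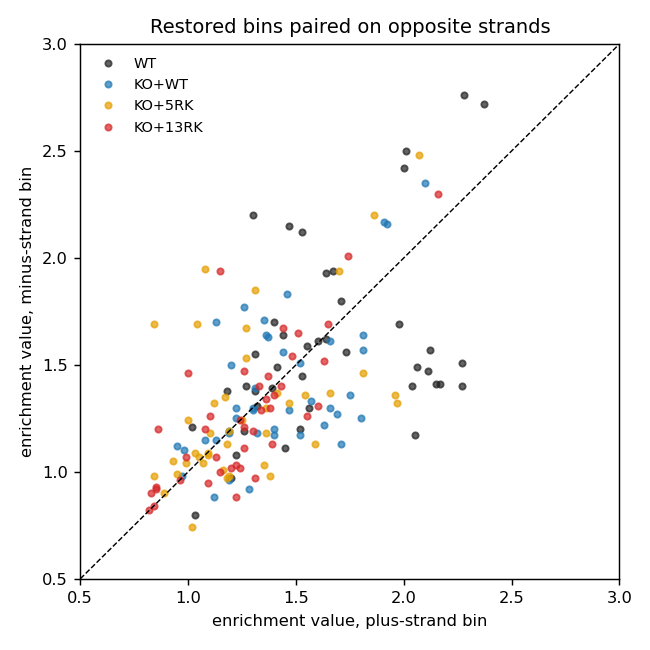
Enrichment value (the authors' score, scale not given) of the plus-strand bin against the minus-strand bin for the 14 restored pairs with starts at most 10 nt apart, in each of the 12 lists, coloured by line. The dashed line marks equal values, and the median distance between both values of a pair is 0.193.

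To set lists of unequal length side by side, the enrichment value was turned into a percentile among the 1867 bins listed in all 12 lists, which are the same bins in each. Of the restored bins 9 stayed above the 90th percentile in every list and 39 above the 75th. The bin of Atp2c1, a calcium and manganese pump of the Golgi, at chr9:105412840-105412939 had the highest mean percentile, 99.1, and values of 3.63, 2.99 and 2.80 in WT, 2.86, 3.01 and 2.51 in KO+WT, 3.65, 3.22 and 3.75 in KO+5RK and 3.32, 2.55 and 3.43 in KO+13RK. All 12 percentiles were 97.0 or higher. Atp2c1 had no KO bin anywhere, 2 or 3 bins in every other list, and its second restored bin adjoins the first at a mean percentile of 98.2. Katnbl1, related to a subunit of the microtubule-severing katanin, followed at 98.8 with 2.90, 2.81 and 3.71 in WT, 2.94, 2.63 and 3.47 in KO+WT, 3.24, 3.61 and 3.30 in KO+5RK and 3.61, 2.78 and 2.09 in KO+13RK. The transcription factor gene Yy1 had 97.9 at chr12:108815974-108816073, 4075 nt before its end. A bin labelled Ccnh, also at 97.9, lies inside Rasa1 on the opposite strand. Taco1, G2e3, Commd8, the kinase gene Rps6kb1 and the acetyltransferase gene Ep300 complete the first 10, at 95.5 to 97.2.

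**Figure D4:**
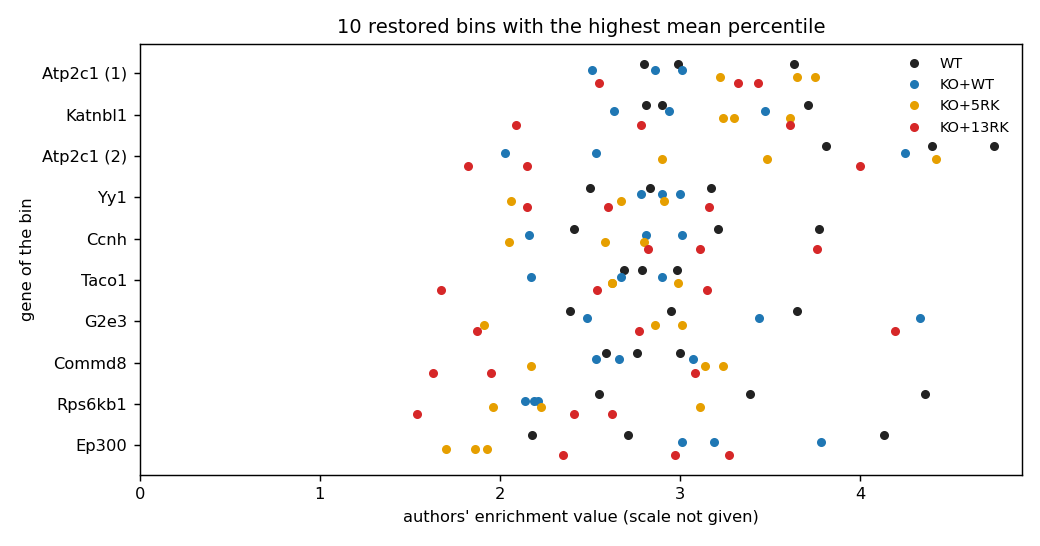
Enrichment value in each list for the 10 restored bins with the highest mean percentile, 3 points per line. Atp2c1 (1) is the bin with a mean percentile of 99.1. The scale of the value is not given and may differ between lists, and the Ep300 points of KO+5RK sit at 1.70 to 1.93, below its other 9.

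Among genes of core and naive pluripotency, 12 of the 40 with any bin (30%) had a restored one, beside 6.04% of all genes. How strongly these genes were expressed was not analysed here. Of the 40, 25 had a bin common to the WT lists and missing from KO, as did 4160 of all 13759 genes, of which 831 had a restored one. Trim71, an RNA-binding regulator of stem cell growth, held 3, and Fgf4, Esrrb, Sall4, Rif1, Klf2 and Tbx3 held 2. Fgf4, the growth factor that primes stem cells to differentiate, had 2, 4 and 4 bins in WT, none in KO, 3, 4 and 3 in KO+WT, 3, 4 and 3 in KO+5RK and 2 in each KO+13RK list. Its bin at chr7:144863568-144863667 stood at percentiles 40.3, 53.2 and 73.8 in WT, 63.4, 71.7 and 65.9 in KO+WT, 58.4, 71.9 and 73.1 in KO+5RK and 69.1, 78.4 and 86.8 in KO+13RK, and KO+13RK did not pass the test against KO+WT (limma adjusted p = 0.708). Sox2, a core pluripotency factor, had 1 restored bin at chr3:34651306-34651405, 1056 nt before its end, with values of 0.82, 0.96 and 0.91 in WT, 0.71, 0.89 and 0.86 in KO+WT, 1.11, 1.00 and 0.80 in KO+5RK and 0.67, 0.71 and 0.84 in KO+13RK. Its percentile was 23.2 or lower in every list, and a KO bin adjoins it. Klf4, another reprogramming factor, had 1 at a mean percentile of 22.4. Pou5f1, Nanog, Klf5 and Myc had none.

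The orphan nuclear receptor gene Esrrb had 11, 9 and 8 bins in KO beside 9, 8 and 9 in WT, yet 2 of its bins met the rule. The bin at chr12:86519018-86519117, 2511 nt before the gene end, stood at percentiles 73.5, 67.6 and 73.8 in WT, 63.4, 74.7 and 59.1 in KO+WT, 62.2, 58.5 and 64.1 in KO+5RK and 41.5, 35.6 and 36.4 in KO+13RK. The KO+13RK lists lay below the other 9. The bin at chr12:86470318-86470417 stood at 41.1, 38.8 and 48.2 in WT, 36.5, 42.3 and 38.6 in KO+WT, 22.4, 20.7 and 9.7 in KO+5RK and 12.2, 4.3 and 8.8 in KO+13RK. Neither difference between KO+13RK and KO+WT passed the test over all 1867 bins (limma, adjusted p = 0.282 and 0.148).

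Of 45 crosslink repair genes with a bin, 24 had one common to the WT lists and missing from KO. So did 4160 of all 13759 genes. A restored bin was held by 8 of the 45 (17.8%) and by 831 of all genes (6.04%). Rev1, a translesion polymerase, held 4, of which the bin at chr1:38088387-38088486 stood at percentile 60.8 or higher in every list. Fancm, the motor protein that anchors the Fanconi core complex, had 4, 5 and 8 bins in WT, none in KO and 1 to 8 in the rescue lists. The Fancl bin had values of 1.51, 2.31 and 1.78 in WT, 1.79, 2.12 and 1.83 in KO+WT, 1.29, 1.41 and 1.97 in KO+5RK and 1.13, 1.42 and 1.13 in KO+13RK. Brca1, the breast cancer repair gene, had 9, 9 and 8 bins in WT, 1 or 2 in each KO list, and 1 restored bin at a mean percentile of 28.7. Blm, Fance, Rpa2 and Usp1 had 1 each. In homologous recombination 25 of 42 genes had a bin common to the WT lists and missing from KO. A restored bin was held by 8 of the 42, among them the kinase gene Atm and Rad54b, whose bin had a mean percentile of 80.4.

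Of 51 Polycomb and histone methylation genes, 39 had a bin common to the WT lists and missing from KO. So did 4160 of all 13759 genes. A restored bin was held by 9 of the 51 (17.6%) and by 831 of all genes (6.04%). Suz12, a core subunit of Polycomb repressive complex PRC2, held 3 in a row near its end at chr11:80032007-80032306, and the chromobox gene Cbx7 held 3 at chr15:79917608-79917907. The Cbx7 label had 4 or 5 bins in every list of every line, KO included. Of 49 genes of remodelling, acetylation and DNA methylation, 34 had a bin common to the WT lists and missing from KO. A restored bin was held by 11 of the 49 (22.4%). Kat2a, a histone acetyltransferase, held 3 that run to the end of the gene at chr11:100704747-100705046. The 3 bins labelled Trim28, a corepressor, lie outside RefSeq Trim28 and inside Zbtb45 on the opposite strand.

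In the cell cycle list 24 of 47 genes had a bin common to the WT lists and missing from KO. A restored bin was held by 9 of the 47 (19.1%), beside 6.04% of all genes. Mdm4, an inhibitor of p53, held 3 adjoining bins, and the middle one at chr1:132991985-132992084 stood between percentiles 90.3 and 97.8 in the 12 lists and had values from 1.82 to 2.60. Mdm2, the ubiquitin ligase of p53, held 2. In the TGF-beta, BMP, FGF and Wnt list 33 of 51 had a bin common to the WT lists and missing from KO. A restored bin was held by 6 of the 51 (11.8%), counting the label Fgfr2. The signal transducer Smad4 had 1, with values of 2.32, 2.26 and 2.81 in WT, 1.67, 1.61 and 2.40 in KO+WT, 2.76, 1.95 and 2.07 in KO+5RK and 1.81, 1.60 and 2.47 in KO+13RK, and the lines overlapped.

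Of 28 genes of the m6A machinery 2 (7.14%) had a restored bin, near the 6.04% of all genes. They were the reader genes Prrc2a (2 bins, percentile 30.6 or lower in every list) and Igf2bp3. Mettl3 and the methionine adenosyltransferase gene Mat2a had none, although Mat2a had 4 to 7 bins in every list. Of 15 arginine methyltransferase genes Prmt9 (2 bins) and Prmt3 had one (13.3%). Among 19 long noncoding RNAs with a bin Lncenc1, an RNA of naive stem cells, held 4, with 5 to 7 bins in each WT list, none in KO and 6 to 8 in each rescue list, and Meg3, Rian and Neat1 held 1. Tug1, with no KO bin, had no restored bin and no bin in the second KO+13RK list. A restored bin was thus held by 4 of the 19 long noncoding RNAs (21.1%). None of 44 cytosolic ribosomal protein genes and none of 9 fibroblast and differentiated-cell genes with a bin had one. At the 6.04% of all genes, lists this short can hold few or none, and their difference from all genes was not tested. A bin common to the WT lists and missing from KO was less rare. It was present in 12 of the 28, 9 of the 15, 9 of the 19, 3 of the 44 and 1 of the 9, beside 4160 of all 13759 genes.

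As a group the restored bins stood slightly above the middle of the 1867 in every line. They are 1179 of those 1867 bins, so a shift shared by all ranked bins cannot show in these percentiles. Ranked within each whole list instead, the median member stood at 62.56 to 63.86 in WT and 55.03 to 56.33 in KO+WT. It stood at 45.65 to 53.54 in KO+5RK and 45.34 to 47.61 in KO+13RK. The whole lists differ in length, and how far that sets this order was not tested. Among the 1867, the median percentile of the members was 55.7 ± 1.23 (SD, n = 3 lists) for WT and 55.3 ± 1.23 for KO+WT. The mutants had 54.1 ± 0.806 (KO+5RK) and 55.5 ± 2.41 (KO+13RK). The 6 arginine mutant lists averaged 0.634 percentile points less than the 6 with wild-type METTL14, 54.8 ± 1.78 against 55.5 ± 1.12, and the lists overlapped. Ranked by the deposited p in place of the value, the means were 47.5 ± 1.34 and 50.4 ± 1.57, and the lists overlapped only between 48.7 and 49.0. Single bins moved far more. Over the 12 lists a member ranged over a median of 56.9 percentile points. Its SD between single lists of a line had a median of 14.4. The SD of its 4 line means, each over 3 lists, had a median of 10.6. Means of 3 lists vary less than single lists, so these 2 SDs do not rank lines against replicates. As a description over the 1179 members, whose lists share genes and library methods, Spearman's rho was 0.673 to 0.682 between WT lists. It was 0.566 to 0.609 within each rescue line. WT had 0.580 to 0.615 with KO+WT, 0.5153 to 0.6005 with KO+5RK and 0.406 to 0.508 with KO+13RK. KO+WT had 0.517 to 0.603 with KO+5RK and 0.481 to 0.558 with KO+13RK. Between KO+5RK and KO+13RK rho was 0.495 to 0.582.

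Bins whose rank differed between lines were sought with limma over all 1867 bins. These bins were kept because every list outside KO called them, so a bin lost from any mutant list was not tested. Few calls among them thus do not show that the lines match. Between KO+WT and WT no restored bin passed an adjusted p of 0.05, and 83 had an unadjusted p below 0.05 beside 144 of all 1867. No member passed between KO+5RK and KO+WT (95 unadjusted, beside 148 of all) or between KO+13RK and KO+5RK (132 unadjusted, beside 188 of all), and the share called over all 1867 bins was 0% in these 3 comparisons. Between KO+13RK and KO+WT 1 member passed, with 158 unadjusted beside 250 of all, and it was the only one of the 1867 bins (0.0536%). That bin lies in Ppm1b, a protein phosphatase gene, at chr17:85013742-85013841 and 10151 nt before the gene end. Its percentiles were 49.6, 33.8 and 50.8 in WT, 79.4, 69.3 and 42.7 in KO+WT, 30.6, 35.3 and 36.2 in KO+5RK and 4.3, 3.2 and 5.5 in KO+13RK. All 3 KO+13RK lists lay below the other 9, and the normal score was lower than in KO+WT (difference -2.10, SE 0.33, limma adjusted p = 0.0158). The call rests on few lists, since the adjusted p was 0.167 without KO+WT replicate 1, 0.132 without KO+WT replicate 2, 0.0674 without KO+13RK replicate 1 and 0.121 without KO+13RK replicate 2.

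The 2 other restored bins of Ppm1b, adjoining each other at chr17:84994042-84994241, showed no such order, with KO+13RK percentiles of 31.5, 62.5 and 51.5 for the first and 22.0, 37.3 and 42.4 for the second. The next bins lay in Usp10 under the label Gm20388 at chr8:119941342-119941441 (difference -1.97, limma adjusted p = 0.0641) and in Mcm3, a subunit of the replicative helicase, at chr1:20803269-20803368 (-1.69, adjusted p = 0.0920). Mcm3 stood at 49.6, 50.6 and 65.7 in WT, 25.7, 54.4 and 38.6 in KO+WT, 12.1, 23.7 and 5.0 in KO+5RK and 4.3, 2.0 and 1.7 in KO+13RK. Between the mutants the bin with the smallest p lay in Ctbp2, a transcriptional corepressor gene, under the label Fgfr2 at chr7:132987952-132988051 (-1.94 in KO+13RK relative to KO+5RK, adjusted p = 0.0885). Its percentiles were 85.9, 82.9 and 74.9 in WT, 45.4, 19.8 and 26.3 in KO+WT, 39.9, 62.7 and 58.9 in KO+5RK and 7.2, 5.1 and 0.72 in KO+13RK. At the same bin KO+WT relative to WT gave -1.43 (limma adjusted p = 0.537), which did not pass.

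**Figure D5:**
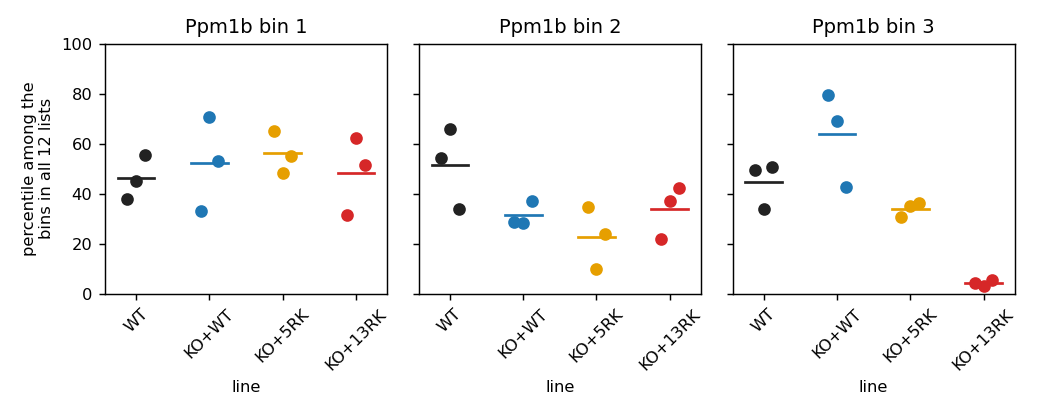
Percentile among the 1867 bins in all 12 lists for the 3 restored bins of Ppm1b, by line, with 3 points and their mean as a bar. In the third bin the KO+13RK points sit at 3.2 to 5.5, below all other points, while the other 2 bins overlap between KO+13RK and KO+WT.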

How the data were processed

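Per the labels, messenger RNA was fragmented, precipitated with an m6A antibody and sequenced with a stranded kit. Per the submitters' processing notes the tools included STAR 2.5.3a and kallisto 0.43.0, with GRCm38 as build, and no role is stated. The peak caller is given only by the names of the deposited lists, which carry clam_peak. Each deposited list gives 100 nt bins with an enrichment score, a p-value and a q-value under 0.05, made by the authors per replicate. The scale of the score is not given, so it was used within lists only. Read depth is unknown, so a missing call does not show missing m6A.

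Bins were matched exactly. Positions came from RefSeq gene spans of GRCm38.p6, first of the authors' gene, then of the smallest same-strand gene containing the bin. Symbols were found for 13730 of 13765 gene identifiers. Ranks over the 1867 shared bins were turned into normal scores and tested with limma 3.58.1 (R 4.3.3) with Benjamini-Hochberg adjustment. On simulated ranks of 1867 bins of the 12 lists, the KO+13RK against KO+WT test recovered 59 of 100 bins shifted by 3 SD and 17 of 100 shifted by 2 SD, with 3 false calls among 1667. The simulated scores were independent and normal, with the same SD for every bin. Real bins overlap and were kept only when called in all 12 lists, so these rates are not the power for these data. A planned permutation p for the members' median percentile is not given, because the members were chosen from these lists. The members and gene lists were chosen with earlier results of these data known. Named were the 15 labels with most restored bins (ties by mean percentile), the 10 highest bins, up to 5 per gene list, bins past the threshold, and 11 fixed genes. Exosc6, Usp10, Urb2, Gm39273, Hnrnpdl, Fn1, Mcm3, Ctbp2 and the further list members were named after their values were seen. Alternatives were stricter q, looser overlap, other distances, other rankings and leaving out each list. The 15 input libraries were not analysed here.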

Additional observations from a re-analysis of the deposited data

How the results depend on the processing

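The number of restored bins was 504 with a q of 0.005 or less in the 12 lists and 1976 when 11 of the 12 lists sufficed, and 1187 to 1375 with any 1 list left out. The share near the gene end was 21.1% within 1000 nt and 69.3% within 5000 nt, 37.8% for the bins at the stricter q, and 40.3% to 41.5% with any 1 list left out. It was 41.2% over bins inside the gene the authors name, an alternative chosen after seeing the data. Between KO+13RK and KO+WT, limma on the deposited p called 7 restored bins, all lower in KO+13RK, among 8 of all 1867 bins. On the percentile it called 4 restored bins, 3 lower and 1 higher, among 5 of all 1867. It called 2 with restored bins alone ranked, and 0 to 2 restored bins with a list left out. Between KO+13RK and KO+5RK the count was 0 to 1 with a list left out. Deviations of same-numbered lists were weakly correlated (18 pairs, -0.0822 to 0.11, median 0.0109). The 36 other pairs had -0.0867 to 0.0851, median -0.00427. Above 0.1 were 2 of the 18 and 0 of the 36, so it is not settled whether the replicate numbers pair the lists. With the replicate number as a block 2 bins were called between KO+13RK and KO+WT and none in the other comparisons. The difference of the Ppm1b bin kept its sign in all 16 alternatives, and its normal score difference was -2.38 to -1.88 with a list left out. The median percentile of the arginine mutants minus that of wild-type METTL14 was -2.90 by the deposited p, -1.26 as a mean and -1.09 to -0.220 with a list left out. The cause of these changes was not tested. The motif window and the blocked permutation were not run, the first because no genome was used here. Unknown depth limits every absence, since bins near the threshold can miss a single list.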
